A study of Homo sapiens with 9 samples.

Results

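The 8 genes of the human condensin complexes were followed on 9 arrays of the human colorectal cancer line DLD1, to ask whether depletion of either lamin goes with a change in their transcripts. Members were the array features whose gene name in the scanner output is that of a condensin subunit, which gave 10 probes for 8 genes, of 50238 probes and 31033 gene names on the array. Total RNA came from 3 untreated control samples, 3 Lamin A/C Kd samples and 3 Lamin B2 Kd samples, where Kd stands for a transient siRNA knockdown at 100 nM for 48 h. All groups are the same cell line, and each sample is a whole transfected or untransfected culture and not a clone. No array came from cells given a control siRNA, so against untreated controls the knockdown and the transfection cannot be told apart. Both knockdown groups were transfected, each with its own siRNA. The methods describe the samples of a group as biologically independent, and p-values measure the spread between them.

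Condensins are ring-shaped protein complexes that fold and stiffen chromosomes. Both human forms contain the ATPases SMC2 and SMC4. Condensin I adds the kleisin NCAPH and the HEAT-repeat subunits NCAPD2 and NCAPG, and it reaches chromosomes after the nuclear envelope breaks down. Condensin II adds the counterparts NCAPH2, NCAPD3 and NCAPG2, is nuclear through the cell cycle and acts earlier in chromosome folding. Lamins form the meshwork under the inner nuclear membrane, against which interphase chromosomes are arranged.

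The following probe stretches are shown because SMC4 and NCAPD3 carry the largest changes below, and because SMC4 and NCAPH2 are each read by a pair of probes of different sequence. Each is the first 30 of the 60 bases as the scanner output lists them.
SMC4 probe 1 (NM_005496): actccctaaactagatcatgaaactggttt
SMC4 probe 2 (AK002200): atttattaaattaggcatattaattcattg
NCAPD3 (NM_015261): accttctattctgtatgatgtatttggtta
NCAPH2 probe 1 (NM_152299): ctccctgcagctggccaatgactacacagt
NCAPH2 probe 2 (NM_014551): catgccagggacccagaaggacaccgggag

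RefSeq promoters of GRCh38.p14, from 250 bases before to 30 bases after a transcription start, matched 7 of the 8 genes with 10 start sites in all, and NCAPH2 was not matched. They were searched on both strands for 3 short motifs of cell cycle promoters, none of which overlapped another. The CHR element, TTTGAA, which the MuvB complex is known to bind, was found at 5 of the 10 start sites, those of SMC2, SMC4, NCAPD2, NCAPG and NCAPD3, and in 14.5% of all 35116 promoters, which are counted per start site too. The CCAAT box, CCAAT, which the factor NF-Y is known to bind, was found at 3 of the 10 (NCAPD2, NCAPH and NCAPD3) and in 33.6% of all promoters. One E2F motif, GGCGGGAA, was searched, and it was found at 1 of the 10, NCAPD3, and in 2.98% of all promoters. The promoters of SMC4 and NCAPD3 and, for contrast, that of NCAPD2, the counterpart of NCAPD3, are shown with the matches in capitals. Where a gene has 2 start sites, the one with more matches is shown, and the other start sites of SMC2, SMC4 and NCAPD3 held none of these letters.
SMC4 (chr3:160399400-160399679, plus strand): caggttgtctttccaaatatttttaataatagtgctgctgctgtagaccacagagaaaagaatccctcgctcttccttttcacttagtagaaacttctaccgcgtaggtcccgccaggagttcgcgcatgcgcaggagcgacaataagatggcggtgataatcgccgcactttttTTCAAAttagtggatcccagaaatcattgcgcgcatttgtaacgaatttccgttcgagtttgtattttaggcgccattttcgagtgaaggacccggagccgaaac
NCAPD3 (chr11:134223938-134224217, minus strand): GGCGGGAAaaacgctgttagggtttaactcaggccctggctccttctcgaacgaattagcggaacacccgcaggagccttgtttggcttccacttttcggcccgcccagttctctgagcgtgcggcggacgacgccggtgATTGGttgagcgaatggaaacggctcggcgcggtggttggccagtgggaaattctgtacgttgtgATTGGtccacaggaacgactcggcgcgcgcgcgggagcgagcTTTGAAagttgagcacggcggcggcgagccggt
NCAPD2 (chr12:6493852-6494131, plus strand): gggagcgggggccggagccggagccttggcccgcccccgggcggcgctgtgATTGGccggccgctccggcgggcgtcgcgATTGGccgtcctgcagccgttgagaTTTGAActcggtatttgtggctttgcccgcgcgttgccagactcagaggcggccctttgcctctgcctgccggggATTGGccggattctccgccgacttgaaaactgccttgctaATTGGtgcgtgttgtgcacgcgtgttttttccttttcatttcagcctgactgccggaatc

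Bases are counted from the transcription start, with no base 0, and a match on the opposite strand is printed as its reverse complement, TTCAAA or ATTGG. In the SMC4 promoter the CHR letters lay on that strand, from base -75 to base -70. In the promoter of NCAPD3 they crossed the start itself, from base -3 to base 3, with CCAAT boxes on the opposite strand at -110 and -45. The NCAPD2 promoter held both kinds of letters as well, the CHR element from -145 and 4 CCAAT boxes. That of NCAPG2 held none of the 3 motifs. A match of letters is a description and not a binding site.

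Values are log2 intensities relative to the 50th percentile of their array, so 0 is the median spot, and levels are compared between groups for 1 probe at a time. The knockdowns were checked first. LMNA, which encodes Lamin A/C, read 8.79, 8.79 and 8.91 in controls, 4.84, 5.14 and 5.03 in Lamin A/C Kd and 8.83, 8.83 and 7.97 in Lamin B2 Kd. It fell 14.2-fold in Lamin A/C Kd (log2 fold change -3.83, SE 0.22, limma adjusted p = 0.000225). LMNB2 read 5.44, 5.51 and 5.74 in controls, 5.11, 5.31 and 5.18 in Lamin A/C Kd and 3.0999, 3.48 and 3.15 in Lamin B2 Kd, with a log2 fold change of -2.32 in the last (SE 0.14, limma adjusted p = 0.000523). In each knockdown the targeted lamin was below all 6 other arrays. LMNB1 read 4.83, 4.81 and 5.38 in controls, 4.09, 4.24 and 3.72 in Lamin A/C Kd and 4.31, 5.32 and 3.46 in Lamin B2 Kd, and its change of -0.99 in Lamin A/C Kd did not pass the test (limma adjusted p = 0.168).

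Lamin B2 Kd replicate 3 stood apart from the other arrays. It was on a slide of its own, its processed signal had not been corrected for multiplicative spatial trends as that of the other 8 arrays had, and its LMNA level was the lowest outside Lamin A/C Kd. Log2 fold changes of the condensin genes that include it are therefore also given without it. Of 10 markers of colon epithelium, 9 were well above background on all 9 arrays, and the summed level of the 10 in controls was 12.9 on the log2 scale, with KRT18 the brightest probe. CEACAM5 was the exception, above background on 1 array. Such sums are set only against the same sum in another group, and this one was 13.0 in both knockdowns. VIL1, an actin-binding protein of the brush border, named here after its values were seen, was the 1 marker of the list called in Lamin B2 Kd, where it was 3.23 in controls and 2.17 in the knockdown (-1.06, limma adjusted p = 0.0340, and -0.87 without replicate 3), beside 3.91% of all genes called lower. With 1 array left out, 0 of the list were called in 6 of 9 cases. These fits called 0.144% to 5.46% of all genes lower. The VIL1 mean in Lamin A/C Kd was 2.64 (-0.58, limma adjusted p = 0.127). Between the knockdowns 1 of the epithelial list was called lower in Lamin A/C Kd and 0 higher, beside 4.53% and 11.2% of all genes. With 1 array left out 0 to 2 of the list were called lower, beside 2.27% to 8.16% of all genes. The summed levels in controls were 0.83 for 6 mesenchymal markers, 2.14 for 5 leukocyte markers and -0.16 for 3 endothelial markers. The Lamin A/C Kd group had 1.25, 2.23 and -0.20, and the other knockdown had 0.68, 2.33 and -0.02. CD14, CD3E, VIM and PECAM1 were among those above background on all 9 arrays, while PTPRC was above background on 2 arrays and COL3A1 on 1. PDGFRB, above background on 7 of the 9 arrays, entered the test through the Lamin A/C Kd group alone, so its call is not given. Its mean level was -1.54 in controls, -0.019 after Lamin A/C knockdown and -1.95 after the other, and its part in the results on condensin was not tested.

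All 10 condensin probes were well above background on all 9 arrays, so no member entered the tests through 1 group alone. In Lamin A/C Kd all 8 genes had a negative log2 fold change against control, and 5 passed the test as lower: NCAPD3, SMC4, NCAPH, NCAPG2 and SMC2. Among all 21838 genes tested 5.80% were called lower in the same way. Without Lamin B2 Kd replicate 3, which enters the shared estimate of the spread, 6 members and 13.5% of all genes were called lower. No member was called higher, where 3.16% of all genes were. The median log2 fold change over the 8 genes was -0.45, and over all genes it was -0.04. For 6 of the 8 genes every Lamin A/C Kd array was below every control, which held for 25.2% of all genes. The study's criterion was a fold change of at least 2 with p under 0.05, read here as an unadjusted p. By it NCAPD3 was the 1 member called, where 1.29% of all genes were called lower. The count of 5 dropped to 2, SMC4 and NCAPD3, when any 1 control or Lamin A/C Kd array was left out, and the share of all genes called lower was then as low as 1.69%.

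**Figure D1:**
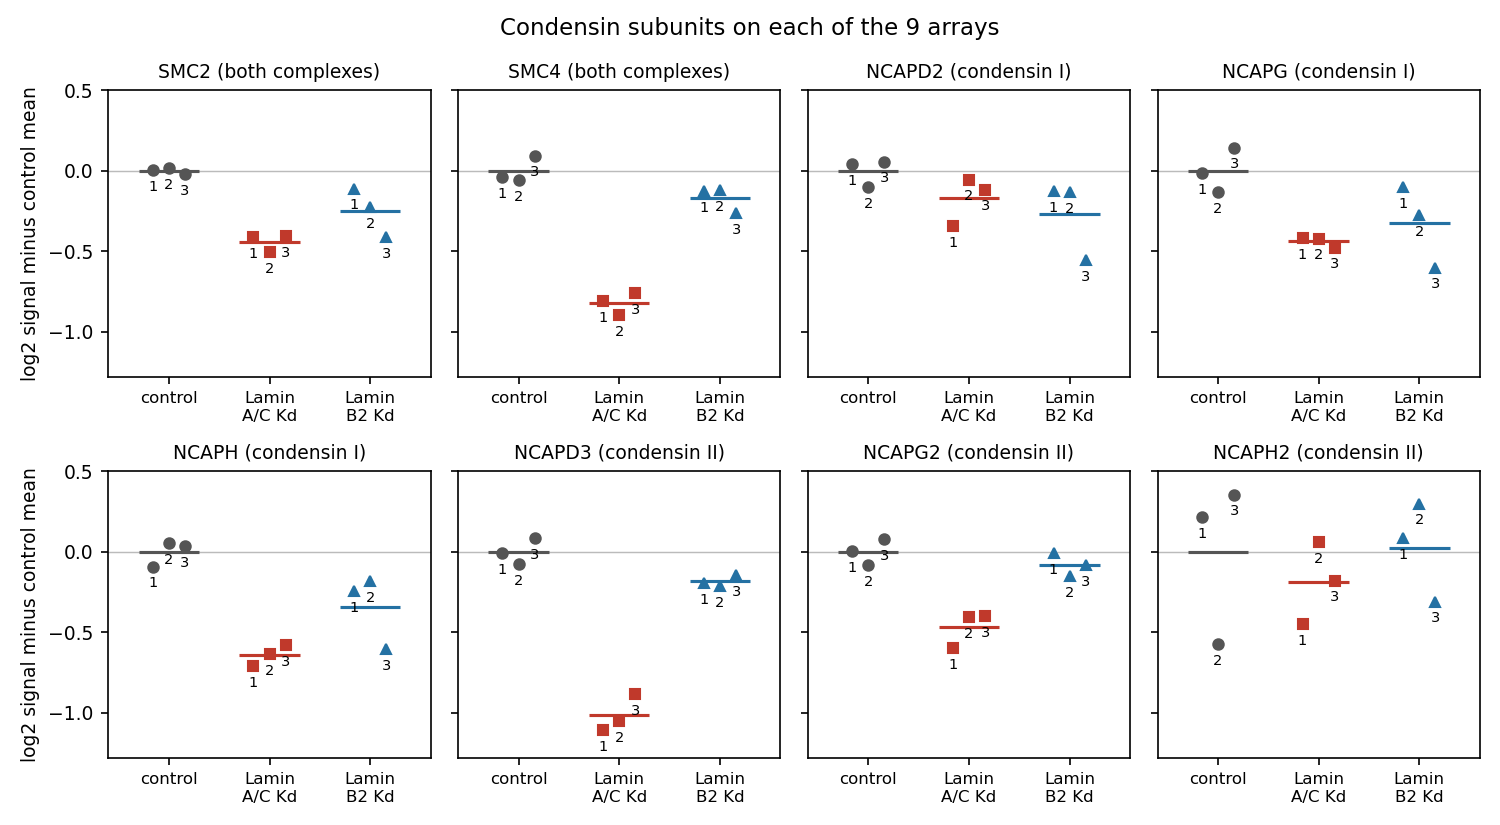
Log2 signal of each condensin gene on each array, minus the mean of the 3 controls (y axis), by group (x axis), with replicate numbers under the points and group means as bars. The Lamin A/C Kd arrays of NCAPD3 and SMC4 lie farthest below the controls, with log2 fold changes of -1.01 and -0.82. Lamin B2 Kd replicate 3 is the lowest Lamin B2 Kd array for SMC2, SMC4, NCAPD2, NCAPG, NCAPH and NCAPH2.

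The core ATPases fell together. SMC4 read 6.37, 6.35 and 6.50 in controls, 5.60, 5.51 and 5.65 in Lamin A/C Kd and 6.28, 6.29 and 6.15 in Lamin B2 Kd. All Lamin A/C Kd arrays lay below every other array, and the knockdown groups did not overlap. SMC4 was 1.77-fold lower in Lamin A/C Kd than in controls (log2 fold change -0.82, SE 0.11, limma adjusted p = 0.00381). The second SMC4 probe, a dimmer one, read 0.11, 0.01 and 0.20 in controls, -0.59, -1.31 and -0.75 in Lamin A/C Kd and 0.24, -0.13 and -0.05 in Lamin B2 Kd. It gave the same order of groups, at -0.99 in Lamin A/C Kd (SE 0.19, limma adjusted p = 0.0152).

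SMC2, the partner of SMC4 in the ring, read 3.84, 3.85 and 3.82 in controls, 3.43, 3.33 and 3.43 in Lamin A/C Kd and 3.73, 3.61 and 3.42 in Lamin B2 Kd. Controls were the highest, and Lamin B2 Kd replicate 3 reached the level of the Lamin A/C Kd arrays. The gene was 1.36-fold lower in Lamin A/C Kd (-0.44, SE 0.11, limma adjusted p = 0.0439), close to the threshold, and it was called in 12 of 22 alternative settings.

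Among the subunits of condensin II, NCAPD3 had the largest change of any member. This HEAT-repeat subunit read 5.67, 5.60 and 5.77 in controls, 4.58, 4.63 and 4.80 in Lamin A/C Kd and 5.49, 5.47 and 5.54 in Lamin B2 Kd. Its 3 groups were fully separate, with Lamin B2 Kd between the other groups but near the controls. NCAPD3 was 2.02-fold lower in Lamin A/C Kd (-1.01, SE 0.11, limma adjusted p = 0.00163). NCAPG2, the second HEAT-repeat subunit, read 5.05, 4.96 and 5.12 in controls, 4.45, 4.64 and 4.65 in Lamin A/C Kd and 5.04, 4.89 and 4.96 in Lamin B2 Kd. Its Lamin A/C Kd arrays lay below all others, while controls and Lamin B2 Kd overlapped. It was 1.38-fold lower in Lamin A/C Kd (-0.47, SE 0.11, limma adjusted p = 0.0343), and it was called in 12 of 22 alternative settings.

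NCAPH2, the kleisin of condensin II, had the widest spread between controls of any member (SD 0.50, n = 3). Its brighter probe read 6.12, 5.33 and 6.26 in controls, 5.46, 5.97 and 5.73 in Lamin A/C Kd and 5.99, 6.21 and 5.60 in Lamin B2 Kd. Control replicate 2 was the lowest of all 9 arrays and the groups overlapped, which left a 95% interval from -0.78 to 0.40 around a log2 fold change of -0.19 in Lamin A/C Kd (limma adjusted p = 0.743). The second NCAPH2 probe read 2.66, 2.79 and 2.88 in controls, 2.33, 2.63 and 2.27 in Lamin A/C Kd and 2.48, 3.04 and 1.97 in Lamin B2 Kd. There control replicate 2 was not low, every Lamin A/C Kd array lay below the controls, and the change of -0.36 did not pass the test either (limma adjusted p = 0.411).

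Of the condensin I subunits, NCAPH passed the test. This kleisin read 6.34, 6.49 and 6.47 in controls, 5.72, 5.80 and 5.85 in Lamin A/C Kd and 6.19, 6.25 and 5.83 in Lamin B2 Kd. Both knockdowns lay below the controls on every array, and Lamin B2 Kd replicate 3 sat among the Lamin A/C Kd arrays. NCAPH was 1.56-fold lower in Lamin A/C Kd (-0.64, SE 0.13, limma adjusted p = 0.0203), and it was called in 13 of 22 alternative settings. NCAPG, a HEAT-repeat subunit, read 8.15, 8.04 and 8.31 in controls, 7.75, 7.75 and 7.69 in Lamin A/C Kd and 8.06, 7.89 and 7.57 in Lamin B2 Kd. The Lamin A/C Kd arrays were below every control, but the change of -0.44 did not pass the test (95% interval -0.77 to -0.11, limma adjusted p = 0.0992), and it did pass in 7 of 22 alternative settings.

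NCAPD2, the counterpart of NCAPD3, read 6.34, 6.20 and 6.36 in controls, 5.96, 6.24 and 6.18 in Lamin A/C Kd and 6.17, 6.17 and 5.75 in Lamin B2 Kd. Lamin A/C Kd overlapped the controls. The log2 fold change of -0.17 had a 95% interval from -0.51 to 0.16 (limma adjusted p = 0.558), lay between -0.26 and -0.053 over the alternative settings, at -0.085 without Lamin A/C Kd replicate 1, and was called in 0 of 22 alternative settings, as was that of NCAPH2.

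**Figure D2:**
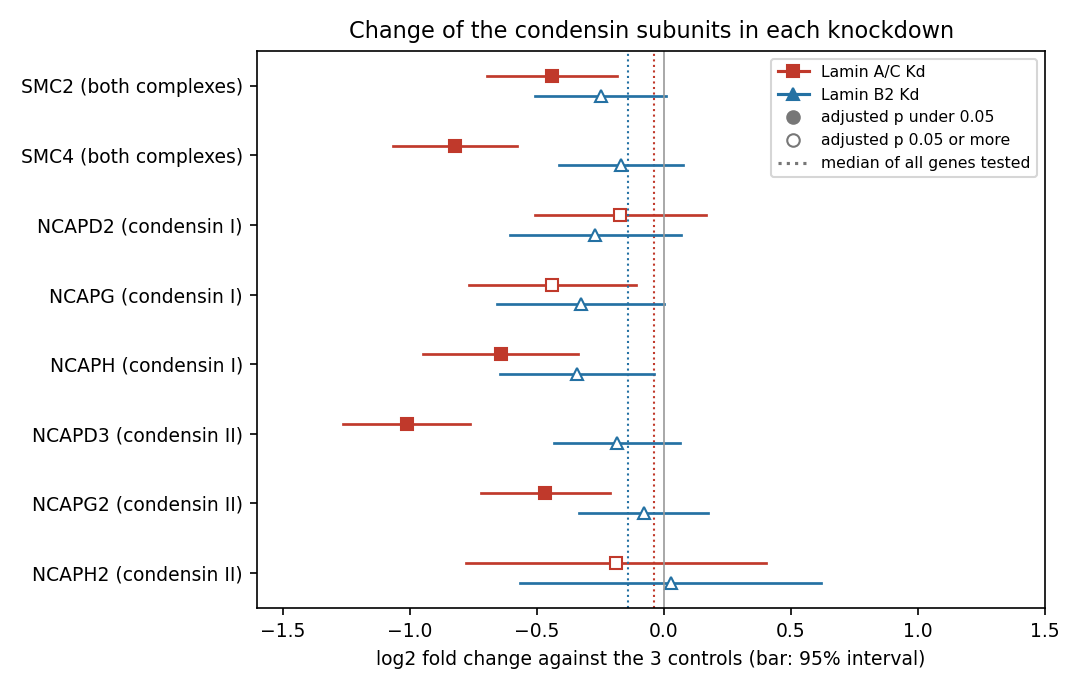
Log2 fold change of each condensin gene against the 3 controls (x axis), with its 95% interval, for each knockdown, filled where the limma adjusted p is under 0.05 and with the median of all genes tested as dotted lines. The 5 filled points all belong to Lamin A/C Kd, and for SMC4 and NCAPD3 the intervals of the knockdowns do not meet.

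Lamin B2 Kd was compared with the same 3 controls, so both comparisons share their control samples. None of the 8 genes passed the test (limma, 0 called at an adjusted p under 0.05), and 1, NCAPH, had an unadjusted p under 0.05. At that unadjusted threshold 4436 of all 22091 genes were lower and 970 higher. In this comparison 3.91% of 22091 genes were called lower and 0.466% higher. With 1 array left out 0 members were called, beside 0.144% to 5.46% of all genes lower and 5 to 231 genes higher. By the study's criterion 0 members and 1.22% of all genes were called lower. Every Lamin B2 Kd array was below every control for 5 members, SMC2, SMC4, NCAPD2, NCAPH and NCAPD3, against 27.2% of all genes. The median over the members was -0.22, and that of all genes was -0.14. Without replicate 3 these were -0.15 and -0.065.

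The largest value was that of NCAPH, at -0.34 (95% interval -0.65 to -0.04, limma adjusted p = 0.173), and it was -0.21 without replicate 3. NCAPG had -0.33 (-0.19 without replicate 3), NCAPD2 -0.27 (-0.13) and SMC2 -0.25 (-0.17). For these 4 genes replicate 3 was the lowest Lamin B2 Kd array. With replicate 3 corrected for multiplicative spatial trends like the other arrays, a setting chosen after seeing the data, NCAPH had -0.34, NCAPD2 -0.29, NCAPG -0.24 and SMC2 -0.17, and 0 members were called. Its slide held no other array, so slide and replicate 3 cannot be told apart. NCAPD3 had -0.18 (95% interval -0.43 to 0.06, and -0.20 without replicate 3), a gene for which replicate 3 was the highest of its group. SMC4 had -0.17 (95% interval -0.41 to 0.07, and -0.12 without replicate 3) and NCAPG2 -0.08 (95% interval -0.33 to 0.17, and -0.08 without it). Under a shift by the 75th percentile the values were nearer to 0, at -0.15 for NCAPH, -0.13 for NCAPG, -0.074 for NCAPD2 and -0.053 for SMC2, and under quantile normalization at -0.12, -0.12, -0.055 and -0.049. Those of SMC4, NCAPD3 and NCAPG2 became positive under both, at most 0.15. NCAPH2 had 0.03 (95% interval -0.57 to 0.62), which was 0.19 without replicate 3.

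A direct comparison of the 2 knockdowns showed 3 members lower in Lamin A/C Kd than in Lamin B2 Kd, where 4.53% of 21820 genes were called lower and 11.2% higher. NCAPD3 was 1.78-fold lower (log2 difference -0.83, SE 0.11, limma adjusted p = 0.00193). SMC4 was 1.57-fold lower (-0.65, SE 0.11, limma adjusted p = 0.00488) and its second probe differed by -0.90 (limma adjusted p = 0.0138). NCAPG2 was 1.31-fold lower (-0.39, SE 0.11, limma adjusted p = 0.0471). These were also the 3 members whose Lamin A/C Kd arrays all lay below the Lamin B2 Kd arrays, which held for 10.4% of all genes. By the study's criterion 0 members were called, against 1.42% of all genes. The median over the members was -0.26, and over all genes it was 0.05. They were -0.38 and 0.0087 without Lamin B2 Kd replicate 3.

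The other 5 members did not pass the test between the knockdowns. The difference was -0.30 for NCAPH (95% interval -0.60 to 0.0034), -0.19 for SMC2 (-0.45 to 0.07), -0.11 for NCAPG (-0.44 to 0.22), 0.10 for NCAPD2 (-0.24 to 0.43, with the sign turned to -0.022 under the 75th percentile shift) and -0.21 for NCAPH2 (-0.80 to 0.38). Without Lamin B2 Kd replicate 3, NCAPH was called as well (-0.43, limma adjusted p = 0.0167), which made 4 members, beside 8.16% of all genes called lower. The other 3 were then NCAPD3 at -0.81, SMC4 at -0.70 and NCAPG2 at -0.39, and the values that did not pass were -0.27 for SMC2, -0.25 for NCAPG, -0.042 for NCAPD2 and -0.38 for NCAPH2. With any other array left out, 2 members were called, NCAPD3 and SMC4. NCAPD3 and SMC4 were called in 22 of 22 alternative settings, both against control and between the knockdowns, and NCAPG2 in 9 between the knockdowns. These settings overlap, since 9 of them each leave out 1 array. The slide as a block gives the same fold changes as leaving out Lamin B2 Kd replicate 3.

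The 2 complexes were set against each other within arrays. The scaling of the array cancels in their difference, but not in the mean of either complex. For each complex the log2 values of its 3 own subunits were averaged after each gene was centered on its mean over the 9 arrays. The difference from controls in Lamin A/C Kd was -0.42 for the condensin I mean and -0.56 for the condensin II mean. For Lamin B2 Kd the differences were -0.31 and -0.08, and -0.18 and -0.029 without replicate 3. The second of these was 0.0081 without control replicate 3 and -0.20 without control replicate 2. The mean of SMC2 and SMC4, which serve both complexes, differed from controls by -0.63 and -0.21, the latter -0.14 without replicate 3. Condensin I minus condensin II was 0.03 ± 0.16 (SD, n = 3) in controls, 0.17 ± 0.08 (SD, n = 3) in Lamin A/C Kd and -0.20 ± 0.15 (SD, n = 3) in Lamin B2 Kd.

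In controls this difference was -0.06, 0.22 and -0.06. It was 0.26, 0.13 and 0.13 in Lamin A/C Kd and -0.09, -0.14 and -0.38 in Lamin B2 Kd. Control replicate 2 lay among the Lamin A/C Kd arrays, so those groups overlapped, while all Lamin B2 Kd arrays were below both other groups. Relative to controls the difference was 0.14 for Lamin A/C Kd, and it was -0.23 for Lamin B2 Kd or -0.15 when replicate 3 was left out. Without control replicate 2 the values were 0.23 and -0.14, and the first was 0.09 when any 1 of 3 arrays, controls 1 and 3 and the first Lamin A/C Kd array, was left out. No p-value is given for a mean over chosen genes.

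**Figure D3:**
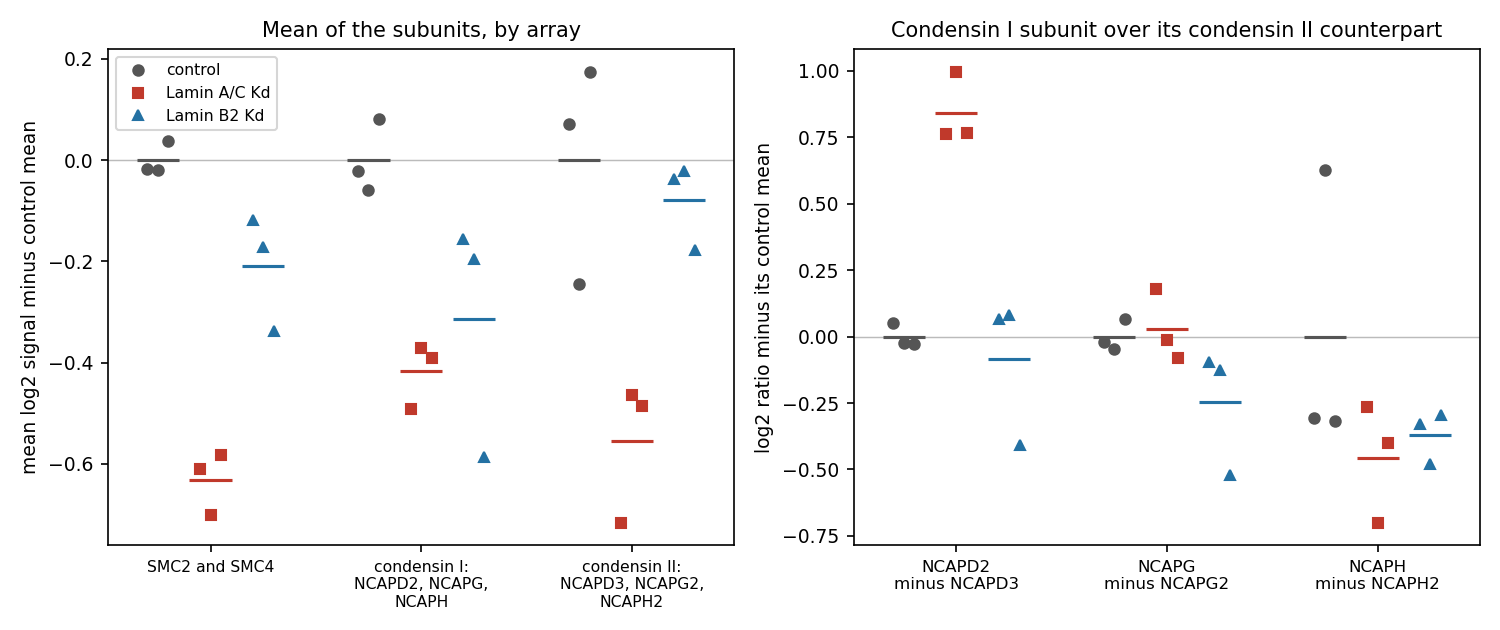
Left, mean log2 signal of SMC2 and SMC4, of the condensin I subunits and of the condensin II subunits on each array, minus its control mean (y axis). Right, log2 ratio of each condensin I subunit to its condensin II counterpart, minus its control mean, with group means as bars. The ratio of NCAPD2 to NCAPD3 is between 0.76 and 0.996 in the 3 Lamin A/C Kd arrays, while for NCAPH to NCAPH2 control replicate 2 stands alone at 0.63.

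Taken subunit by subunit, the pair that stood apart in Lamin A/C Kd was that of NCAPD2 and NCAPD3. Their log2 ratio, relative to its control mean, was 0.76, 0.996 and 0.77 in Lamin A/C Kd, against 0.05, -0.02 and -0.03 in controls and 0.07, 0.08 and -0.41 in Lamin B2 Kd. Lamin A/C Kd stood clear of both other groups, with a mean of 0.84 ± 0.13 (SD, n = 3). The log2 ratio of NCAPG to NCAPG2 in Lamin A/C Kd was 0.18, -0.01 and -0.08, a mean of 0.03 ± 0.13 (SD, n = 3), and it overlapped the controls. The same ratio in Lamin B2 Kd was -0.10, -0.13 and -0.52, below every control, with the largest departure again in replicate 3. The ratio of NCAPH to NCAPH2 was -0.26, -0.70 and -0.40 in the Lamin A/C Kd arrays and -0.33, -0.48 and -0.30 in Lamin B2 Kd, but the controls ranged from -0.32 to 0.63 with the low NCAPH2 reading of replicate 2. Without the NCAPH and NCAPH2 pair, a choice made after the data were seen, the condensin I minus condensin II change in Lamin A/C Kd was 0.43.

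The members also differed in how alike their profiles were over the 9 arrays. These correlations are descriptions, since the points share 3 groups and 1 of the arrays stands apart. Pearson's r was 0.98 between SMC4 and NCAPD3, 0.97 between NCAPD3 and NCAPG2 and 0.96 between SMC2 and NCAPH, but 0.21 between NCAPD2 and NCAPD3. Taken as deviations from the group means, r was 0.44 between SMC4 and NCAPD3, 0.73 between NCAPD3 and NCAPG2 and 0.73 between SMC2 and NCAPH. It was 0.79 between NCAPD2 and NCAPH and -0.02 between NCAPH and NCAPD3. Among 14265 named genes above background on every array, those with the profile most like the condensin I mean were PUSL1 (r = 0.99), EMG1, MCM7, REEP2 and PUF60. For the condensin II mean they were PTGER2 (r = 0.99), MTMR6, IMMT, RECK and SLC25A25, of which MTMR6 had the largest log2 fold change in Lamin A/C Kd, at -1.29.

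Of 22 kinases, phosphatases and chromosome scaffold partners of condensin, 6 were called lower in Lamin A/C Kd, where 5.80% of all genes were, 0 were called higher, beside 3.16% of all genes, and the median was -0.36. All groups share 1 estimate of the spread, and with 1 array left out the count was between 1 and 11, beside 1.69% to 13.5% of all genes. The highest Lamin A/C Kd counts of this and the following lists came without Lamin B2 Kd replicate 3, and the lowest without a control or Lamin A/C Kd array. For cohesin the lowest count was also found without Lamin B2 Kd replicate 1 or 2. KIF4A, the chromokinesin that binds condensin I, was 1.83-fold lower (-0.87, SE 0.13, limma adjusted p = 0.00644). MKI67, which coats mitotic chromosomes, changed by -0.57, CDK1, the mitotic kinase that phosphorylates condensin subunits, by -0.56, TOP2A, the topoisomerase that untangles sister chromatids, by -0.51, and BIRC5, a member of the chromosomal passenger complex, by -0.58, and all of these passed the test. PLK1 (-0.46, limma adjusted p = 0.0794), AURKB (-0.45, limma adjusted p = 0.116) and MCPH1, which restrains condensin II (-0.37, limma adjusted p = 0.201), did not pass.

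Of the same 22 genes, 1 was called lower in Lamin B2 Kd, beside 3.91% of all genes. This was INCENP, the scaffold of the chromosomal passenger complex, at -0.72 (limma adjusted p = 0.0337), and at -0.74 without replicate 3 (limma adjusted p = 0.0414). With 1 array left out, 0 of the 22 were called in 7 of 9 cases. These fits called 0.144% to 5.46% of all genes lower. KIF4A had -0.20, CDK1 -0.19, TOP2A -0.30, AURKB -0.51, MKI67 -0.01, MCPH1 -0.37 and PLK1 -0.36, and none of these passed. Without replicate 3 they were -0.17, -0.18, -0.22, -0.33, -0.03, -0.28 and -0.15. The PLK1 value rests on 2 Lamin B2 Kd arrays, since its spot on replicate 1 was an outlier. Between the knockdowns KIF4A (-0.66, limma adjusted p = 0.0103) and MKI67 (-0.56, limma adjusted p = 0.0183) were lower in Lamin A/C Kd, and INCENP was higher by 0.58 (limma adjusted p = 0.0262), the 1 of 22 called higher, beside 11.2% of all genes. With Lamin A/C Kd replicate 3 or Lamin B2 Kd replicate 2 left out, 0 of 22 were called higher. KIF4A and MKI67 were the 2 of 22 called lower, beside 4.53% of all genes, and with 1 array left out between 1 and 5 of 22, beside 2.27% to 8.16%.

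The other SMC complexes of the cell are cohesin and SMC5/6. Of 11 cohesin genes, 1 was called lower in Lamin A/C Kd, beside 5.80% of all genes. This was SMC1A, at 2.53-fold (-1.34, SE 0.16, limma adjusted p = 0.0025), which is an SMC subunit of the ring that holds sister chromatids, and the median was -0.29. Of 6 genes of the SMC5/6 complex, which acts in DNA repair, SMC6 (-0.73, limma adjusted p = 0.0192) and NSMCE3 (-0.62, limma adjusted p = 0.0237) were called lower, with a median of -0.31. With 1 array left out these counts were between 1 and 6 of 11 and between 0 and 4 of 6, beside 1.69% to 13.5% of all genes. The counts in Lamin B2 Kd were 0 of 11 and 1 of 6, beside 3.91% of all genes, and the 1 was NSMCE2, at -0.61 (limma adjusted p = 0.0308). Without replicate 3 NSMCE2 had -0.55 and NSMCE4A was called too, which made 2 of 6, beside 3.99% of all genes. In 6 of the 9 cases with 1 array left out, 0 of 6 were called. These 9 fits called 0.144% to 5.46% of all genes lower. WAPL (-0.48, and -0.36 without replicate 3) and SMC1A (-0.34, and -0.18) had the largest cohesin values there. Between the knockdowns SMC1A was the 1 of 11 called lower in Lamin A/C Kd, beside 4.53% of all genes, with a log2 difference of -1.01 (limma adjusted p = 0.00417). With 1 array left out between 1 and 3 of 11 were called lower, beside 2.27% to 8.16% of all genes. NSMCE2 was higher by 0.44 (limma adjusted p = 0.0365), where 11.2% of all genes were called higher. This SMC5/6 call was kept without Lamin B2 Kd replicate 3 and lost with any 1 of the other 8 arrays left out.

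Condensin transcripts are known to be more abundant in dividing cells, and genes of the cell cycle were followed on the same arrays. In a whole culture, fewer dividing cells and less RNA per cell cannot be told apart. The study also took cell cycle profiles by flow cytometry, which were not analysed here. In Lamin A/C Kd 9 of 24 G2 and M phase genes were called lower, beside 5.80% of all genes, and 0 higher, beside 3.16%, with a median of -0.45. HMMR led them at -1.44 (limma adjusted p = 0.000472), followed by AURKA (-0.74), CENPE (-0.71) and DLGAP5 (-0.63). Of 19 S phase genes, 9 were called lower and 0 higher, with a median of -0.48, led by the helicase subunits MCM6 (-1.22, limma adjusted p = 0.00139) and MCM4 (-0.80), GINS2 (-0.68) and POLA1 (-0.65). Of 18 transcription regulators of the cell cycle, a list that also holds the CDK inhibitor CDKN1A, 7 were called lower and 0 higher, with a median of -0.47, among them E2F8 (-1.02), RBL1 (-0.83), MYBL2 (-0.62) and FOXM1 (-0.62). With 1 array left out the counts were between 2 and 19 of 24, 3 and 14 of 19, and 1 and 9 of 18, beside 1.69% to 13.5% of all genes.

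The genes of these 3 lists called in Lamin B2 Kd were 1 of 24, 0 of 19 and 0 of 18, beside 3.91% of all genes. With 1 array left out they were 0 to 1, 0 and 0 to 1, beside 0.144% to 5.46% of all genes called lower. The 1 was KIF2C at -1.06 (limma adjusted p = 0.00684), and at -0.95 without replicate 3. CDT1 (-0.47), CCNE1 (-0.41), E2F1 (-0.70) and RBL2 (-0.52) had the largest values of the lists with no call, and were at -0.21, -0.36, -0.50 and -0.39 without replicate 3. The medians of the 3 lists were -0.22, -0.25 and -0.28, beside -0.22 for condensin and -0.14 for all genes. Without replicate 3 they were -0.16, -0.13 and -0.11, beside -0.15 and -0.065. Between the knockdowns 5 G2 and M phase genes, 5 S phase genes and 4 of the transcription regulator list were lower in Lamin A/C Kd, beside 4.53% of all genes. They were led by HMMR (-0.96), MCM6 (-1.09) and CDKN1A (-0.90). KIF2C (0.72) and CCNE1 (0.68) were called higher, 1 of 24 and 1 of 19, beside 11.2% of all genes. With 1 array left out the counts called lower were between 1 and 9, 2 and 6, and 3 and 6, beside 2.27% to 8.16% of all genes. The part of the cell cycle in the condensin values was not tested.

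**Figure D4:**
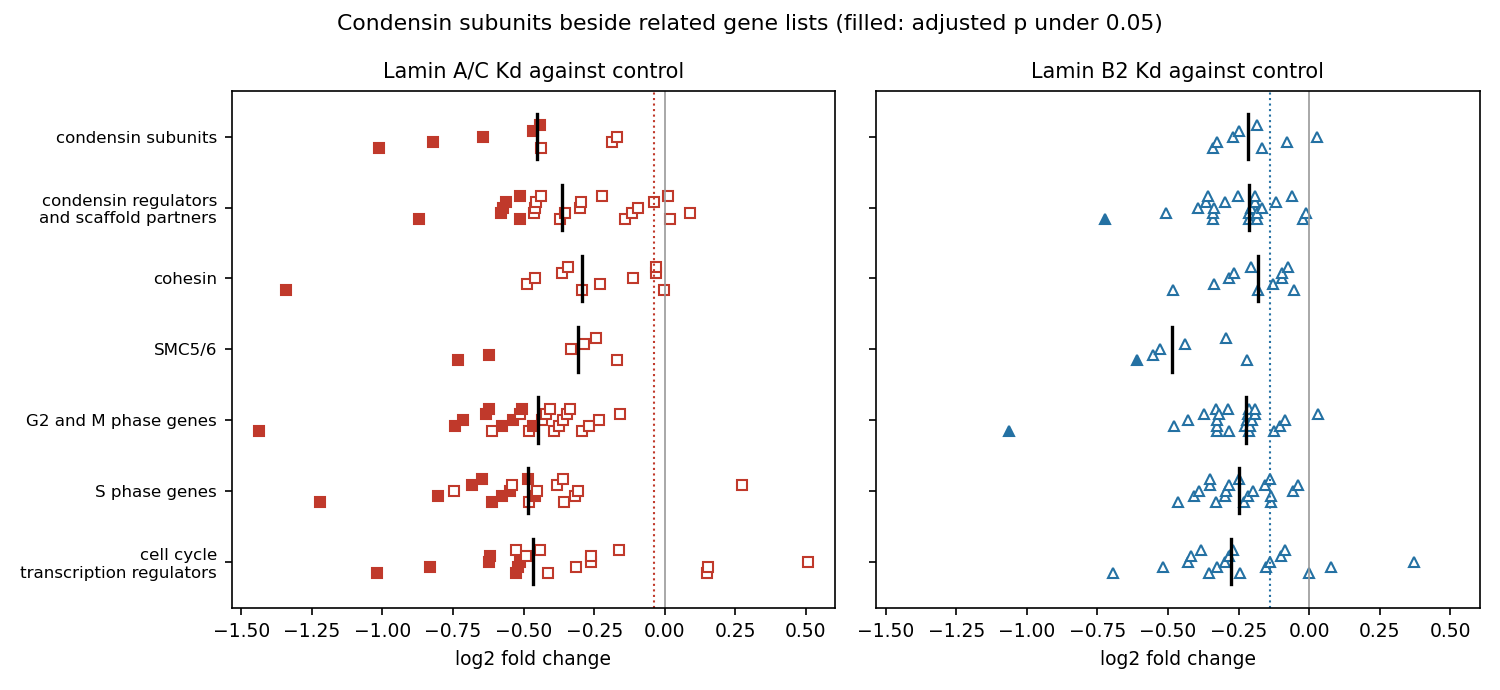
Log2 fold change of each gene of the condensin list and of 6 related lists against the 3 controls (x axis), 1 point per gene, filled where the limma adjusted p is under 0.05, with list medians as black bars and the median of all genes as dotted lines. In Lamin A/C Kd the condensin median of -0.45 lies beside those of the cell cycle lists, and in Lamin B2 Kd the filled points are INCENP, NSMCE2 and KIF2C.

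How far each member's value moved with the processing is shown by setting. In Lamin A/C Kd all 8 genes stayed below 0 in the 22 alternatives. NCAPD3 ranged from -1.08 to -0.89 and SMC4 from -0.90 to -0.70, whereas NCAPH2 ranged from -0.47 to -0.01. In Lamin B2 Kd no member was called in any of the 22, and SMC4, NCAPD3, NCAPG2 and NCAPH2 took both signs.

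**Figure D5:**
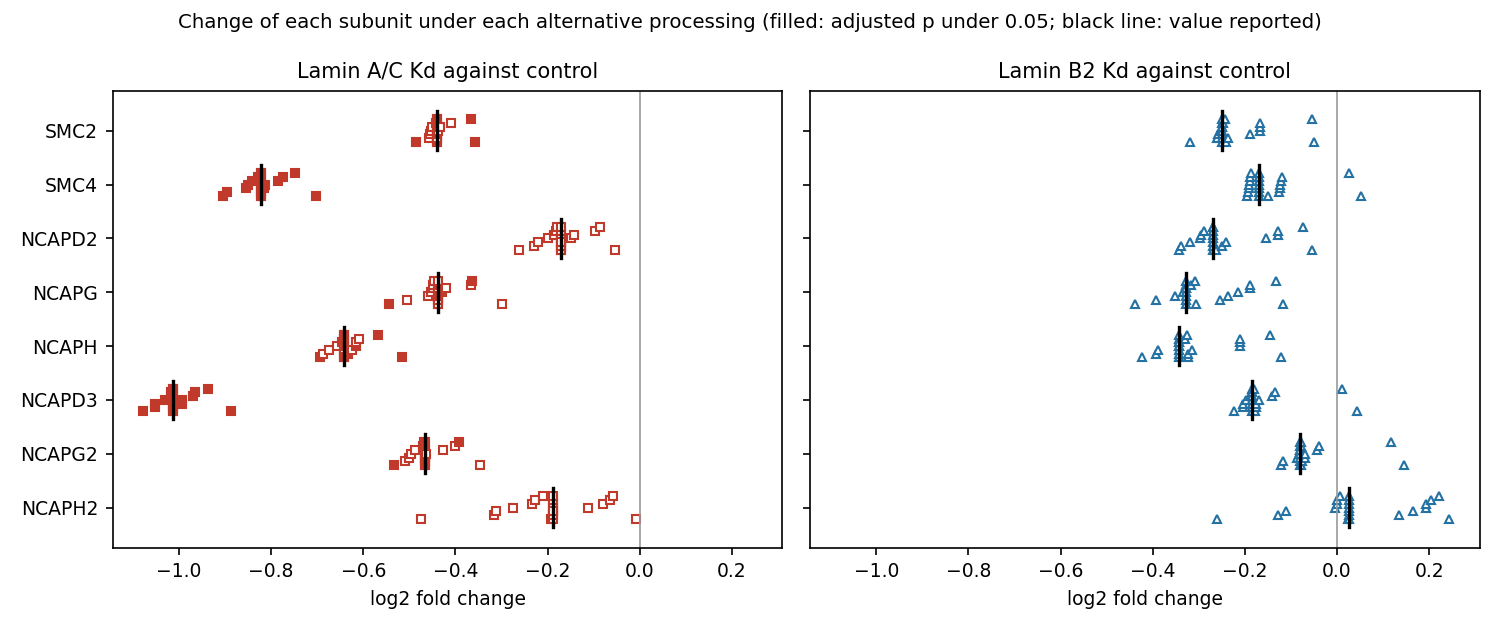
Log2 fold change of each condensin gene against control (x axis) under 22 alternative ways of processing, 1 point per setting, filled where the limma adjusted p is under 0.05, with the reported value as a black line. In Lamin A/C Kd the points of SMC4 and NCAPD3 are filled throughout, and in Lamin B2 Kd none is filled.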

How the data were processed

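Total RNA of DLD1 cells was labeled with Cy3 and hybridized to single-color Agilent arrays, 1 per sample. The authors deposited the output of Agilent Feature Extraction (version 10.5, per the submitters' processing notes), which gives for each spot a processed intensity after background subtraction and detrending, the detrending factor as a ratio, and other flags for background, saturation and outliers. A further deposited file holds the authors' log2 signals, shifted by each array's 50th percentile and centered by row. Of its 50238 rows, 29972 hold values and 11504 join several probes, so it was tried as an alternative. Its Lamin B2 Kd columns were used by group, since their set numbers do not follow the sample titles.

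Processed intensities were put on the log2 scale, reduced by the 50th percentile of the array, and averaged per probe after outlier spots had been dropped. Array depth is given by signal over background. The median intensity was between 63.0 and 82.6 and between 65.6 and 74.1% of the 51538 spots were well above background, with 0 saturated. Probes entered a test if a group in it had them well above background on all of its 3 arrays. Files were read in R 4.3.3 with its package data.table (version 1.17.8). Groups were compared with limma 3.58.1 in 1 model over the 9 arrays, with Benjamini-Hochberg adjustment over all probes tested and a call at an adjusted p under 0.05. A gene has the value of its brightest probe. The precision is limited by 3 arrays per group. The steps were tested on simulated data.

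Named were all members, the lamins, 7 condensin partners, from each list up to 4 called genes with the largest change (or the 2 largest where none was called), and the 5 genes most like each complex. Members and lists were chosen with earlier results of these data known. Old gene names on the array were matched to current symbols through RefSeq synonyms. Alternatives were other scalings (75th percentile, quantile), normexp with an offset of 50, the authors' table, other filters, the replicate or slide as a block, only the 2 groups compared, array weights, averaged probes, other call rules and each array left out. Detrending all arrays or none, leaving out the NCAPH and NCAPH2 pair, and leaving out each array for the lists and complex means, were added after the data were seen. The values of 1 marker gene, which the text does not name, are not reported here.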

Additional observations from a re-analysis of the deposited data

Results flagged for a closer look

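The log2 fold changes of 3 condensin genes differed between the knockdowns by limma's test of the difference itself. The difference, Lamin A/C Kd minus Lamin B2 Kd, was -0.83 for NCAPD3, -0.65 for SMC4 and -0.39 for NCAPG2. The first of these and that of SMC4 were called in 22 of 22 alternative settings, and that of NCAPG2 in 9 of 22. No test of single outlying arrays was made.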

How the results depend on the processing

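In Lamin A/C Kd, 2 condensin genes instead of 5 were called with the authors' table, with no filter on dim probes or with the replicate number as a block, and 1 at 2-fold with an unadjusted p under 0.05, while 4 were called with quantile normalization and 6 with the 75th percentile shift, normexp, the slide as a block, only the 2 groups compared, array weights or Lamin B2 Kd replicate 3 detrended. The cause was not tested. Leaving out 1 array gave 2 to 6, beside 1.69% to 13.5% of all genes called lower. The 2-fold rule called 1.29% of all genes lower. Under the other scalings, filters and models the share of all genes was not counted, so counts there do not speak to condensin alone. In Lamin B2 Kd, 1 gene was called at an unadjusted p under 0.05, where 4436 of 22091 genes were lower and 970 higher. Whichever array was left out, 0 were called, beside 0.144% to 5.46% of all genes lower. Between the knockdowns, instead of 3, 5 genes were called with the 75th percentile shift and with quantile normalization, 0 at 2-fold, 2 with the replicate block, the authors' table, no filter, only the 2 groups compared or no array detrended, 4 with normexp, the slide as a block or array weights, and 2 to 4 with 1 array left out. By the numbers in the sample titles, the deviations of same-numbered arrays had r from -0.09 to 0.15. Those of differently numbered arrays had r from -0.12 to 0.15. Whether samples were paired under another numbering was not tested. The condensin I minus II change was 0.43 in Lamin A/C Kd without the NCAPH and NCAPH2 pair, and leaving out 1 array gave 0.09 to 0.23 in Lamin A/C Kd and -0.29 to -0.14 in Lamin B2 Kd. Of the log2 values of single members, 456 kept sign and side of the threshold, 42 lost and 15 gained a call, and 15 changed sign. In Lamin B2 Kd, the 75th percentile shift turned SMC4 to 0.027, NCAPD3 to 0.012 and NCAPG2 to 0.12, and quantile normalization to 0.052, 0.044 and 0.15. NCAPH2 turned to -0.13 with averaged probes and to -0.26, -0.0042 and -0.11 without control replicate 2, Lamin B2 Kd replicate 1 and replicate 2, within -0.26 to 0.20 over all arrays left out. Between the knockdowns NCAPD2 turned to -0.022 with the 75th percentile shift, -0.042 with the slide as a block or without Lamin B2 Kd replicate 3 and -0.028 with array weights (-0.042 to 0.18 with 1 array left out), and NCAPG to 0.00029 without Lamin B2 Kd replicate 1 (-0.25 to 0.00029). All condensin probes were above background on all 9 arrays, and whether signal limited these results was not tested.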

Other observations

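The authors' table joins the brighter SMC4 probe with 4 further probes that carry no condensin name on the array, and they were looked at after the values of SMC4 were seen. Their log2 fold changes in Lamin A/C Kd were -0.80, -0.77, -0.83 and -0.74 (limma adjusted p = 0.00823, 0.00836, 0.00713 and 0.017), beside -0.82 and -0.99 for the named SMC4 probes. On each of them all 3 Lamin A/C Kd arrays lay below all 3 controls, which held for 25.2% of all genes. In Lamin B2 Kd they had -0.14, -0.18, -0.33 and -0.23 (limma adjusted p from 0.174 to 0.507). On the third all 3 Lamin B2 Kd arrays lay below the controls too, beside 27.2% of all genes.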
